A study of Mus musculus with 6 samples.

Results

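The subject is the mouse line labelled mKitK641E(T), called T here, set against the vector line mVec across all genes of the array. Members were the 2 T arrays and the 2 mVec arrays, so 4 of the 6 arrays of the series, and the features were 19505 genes, each represented by its probe set with the highest mean over the 6 arrays. The series measured RNA on Affymetrix Clariom S mouse arrays in 3 lines made from melan-a cells, which are immortalized C57BL/6J melanocytes. The mVec line was given the control vector CD516B2, and its labels call it melanocyte. T carries Kit with the K641E substitution and is labelled as transformed melanoma cells, as is a further Kit K641E line, mKitK641E(PT), called PT here. All lines grew in RPMI medium with 10% serum and no treatment. In the titles T appears as C3# and PT as hi exp, and no source used here explains these names or the letters T and PT. Each group is 1 line whose arrays are numbered as replicates, without a statement that they came from separate cultures, so the p-values rest on how far arrays of the same line differ and say nothing of other lines of the same kind.

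Kit is the receptor tyrosine kinase through which stem cell factor keeps melanocytes alive, dividing and migrating. Its active form signals through the RAS to ERK cascade and through phosphatidylinositol 3-kinase. The K641E substitution lies in the kinase domain and is a known activating change of melanoma and other tumours.

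Values are the deposited log2 intensities. A gene was called when its limma adjusted p was under 0.05. Each array had a background limit, the value that 95% of its negative controls did not exceed, and it lay between 8.74 and 9.16. A line with no array over its limit is said to be at background for that gene. The fold against such a line is a lower bound, taken against the limit. Between 6433 and 7240 gene probe sets passed the limit on an array, and the 2 arrays of a group correlated across genes at r = 0.993 in T and 0.995 in mVec (genes are not independent replicates). Precision is limited by having 2 arrays a line. The labelled cell type was checked against 12 melanocyte markers, of which Gpnmb and Mitf were above background in T and Gpnmb alone in mVec. The introduced gene's own probe set, Kit, read 4.53 and 5.18 in T, 4.53 and 3.84 in PT, against 4.68 and 4.97 in mVec, so it was at background on all 6 arrays. No source states whether it can read the introduced RNA, so it is no check of the labels. The defining genes Tyr, Dct, Pmel, Mlana and Sox10 were at background in both lines. Of the 11 measured markers of fibroblasts and mesenchyme, 8 were above background in mVec and 5 in T, and the mean log2 level of the list was 8.31 and 8.37 on the T arrays against 12.29 and 12.33 on the mVec arrays. The list did not move as 1: 8 markers were called lower in T (16.1% of all genes were) and 1 higher (17.7%). Col1a2 was above background in T and not in mVec. The markers of leukocytes, keratinocytes, mast cells, Schwann cells and neural crest were all at background in both lines, while Cdh5 of the endothelial list was above it in mVec and Acta2 of the smooth muscle list in both.

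In T, 6595 of 19505 genes were called against mVec (33.8%), 3462 of them higher (17.7%) and 3133 lower (16.1%). With a difference of at least 2-fold, 4903 genes were called (25.1%), of which 2556 were higher (13.1%) and 2347 lower (12%). Many of these calls lie low on the scale: 1819 were at background in both lines. Among the 7418 genes above background on at least 1 of the 4 arrays, 2709 were higher (36.5%) and 2067 lower (27.9%). Of the calls, 616 were at background in mVec and above it on both T arrays, and 608 were the other way round. The share of calls that were higher was 52.5% on the deposited scale and 62.4% after each array was centred on its median, since centring moves every difference up by 0.18 on the log2 scale. The PT line gave 7286 calls against the same mVec arrays (37.4%), and T differed from PT in 1710 genes (8.77%), 1164 higher in T (5.97%) and 546 lower (2.80%). These comparisons share arrays.

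**Figure D1:**
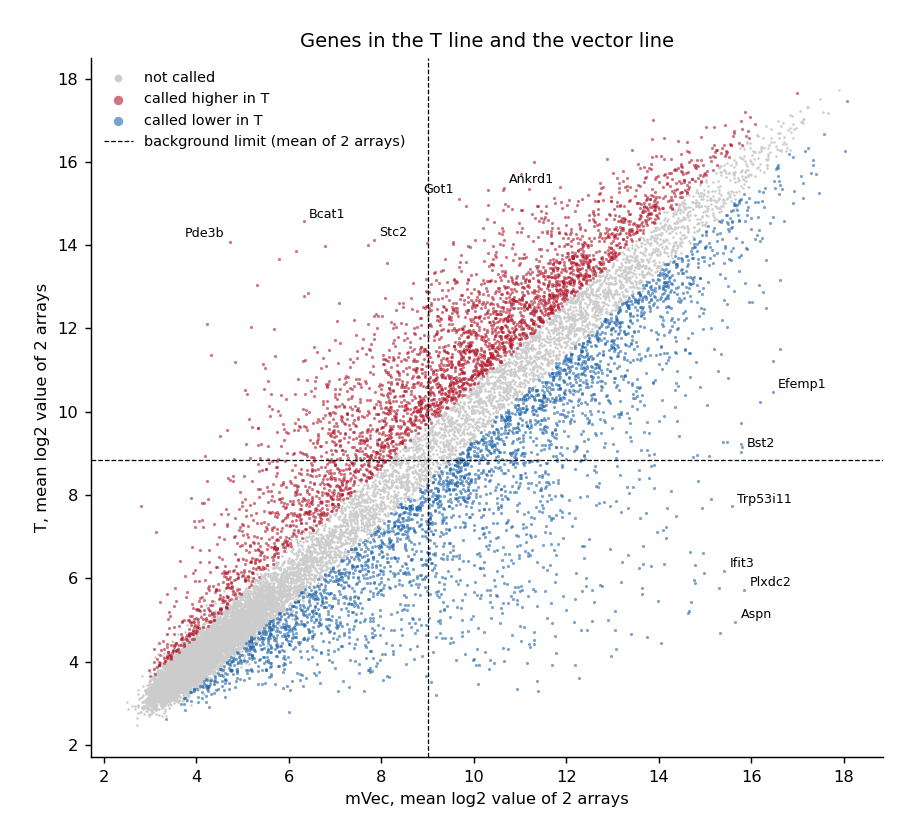
Each point is 1 of 19505 genes, with its mean log2 value over the 2 mVec arrays on the horizontal axis and over the 2 T arrays on the vertical axis. Red and blue points were called higher (3462) and lower (3133) in T, grey points were not called, and the dashed lines are the mean background limits of each line's 2 arrays. Pde3b and Bcat1 stand at the upper left, at background in mVec, and Aspn, Plxdc2 and Ifit3 at the lower right, at background in T.

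The largest falls that could be measured on both sides were those of Bst2, Col3a1 and Dbp. Bst2, the membrane tether that holds budding virus particles, was at 9.10 and 8.97 on the T arrays and at 15.77 and 15.79 on the mVec arrays. Its T values stood just over the limit while the mVec values were far above it, with no overlap. Bst2 was 107-fold lower in T (log2 difference -6.75 ± 0.20 SE, limma adjusted p = 2.86e-08). Col3a1, the fibrillar collagen of soft tissues, had T values of 9.25 and 9.05 against 15.60 and 16.01 in mVec, a 101-fold fall (log2 difference -6.66 ± 0.27, limma adjusted p = 1.53e-07). Dbp, a transcription factor whose level follows the circadian clock, had T values of 9.55 and 8.92 against 15.88 and 15.66, a 92.7-fold fall. In both genes the T arrays lay close to the limit and the mVec arrays far above it. The other genes among the 12 largest measured falls were the lipid phosphatase Plpp3, the WNT pathway modulator Dkk3, the calcification inhibitor Mgp, the matrix glycoprotein Efemp1, the selenium carrier Selenop, the junction protein Lmo7, smooth muscle actin Acta2, the surface protein Ly6c1 and the interferon-inducible GTPase Irgm1. Their log2 differences ran from -6.21 for Plpp3 to -4.91 for Irgm1.

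The same 12 genes are given in PT as a description. Efemp1 read 10.36 and 10.60 in T, 6.32 and 5.97 in PT, against 16.43 and 16.49 in mVec. T lay between the other lines, with no overlap, and only PT was at background. T exceeded PT at least 2.77-fold for Efemp1 (log2 difference 4.33 ± 0.22, limma adjusted p = 9.49e-05). Acta2 read 11.49 and 11.52 in T, 8.25 and 8.36 in PT, against 16.58 and 16.67 in mVec, again with T in between, and T exceeded PT at least 5.62-fold. Lmo7, at 11.03 and 11.38 in T, 8.36 and 8.20 in PT, against 16.54 and 16.42 in mVec, was at least 4.58-fold higher. Of the 12 genes, 9 were called higher in T than in PT and 0 lower. The rule asked that they be above background in T and left PT free, so it favours genes that are higher in T than in PT, and nothing is read from that count or from its distance to the 5.97% of all genes. For Col3a1, Dbp, Dkk3, Efemp1, Selenop, Lmo7 and Acta2 the call held when each array was left out in turn. Plpp3 lost it without either T or either PT array (adjusted p from 0.0557 to 0.154), without either mVec array (0.058) and in the quantile-normalized and the 2-group fits (0.0982 and 0.058), and Irgm1 lost it without T replicate 2 (0.0641) or PT replicate 1 (0.086). Bst2 (-0.56), Mgp (0.52) and Ly6c1 (-0.99) were not called between T and PT. Bst2 was called lower in T with gene probe sets above background alone (adjusted p = 0.0314), and Ly6c1 in 6 alternatives (adjusted p from 0.0237 to 0.0481).

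Among genes that dropped out in T, the largest bounded falls were those of Plxdc2 and Aspn. Plxdc2, a membrane protein with a plexin-like domain, read 5.77 and 5.69 in T and 15.88 and 15.80 in mVec, at least 129-fold lower. Aspn, a small leucine-rich proteoglycan, read 4.61 and 5.30 in T and 15.62 and 15.68 in mVec, at least 113-fold lower. Both were at background in PT as well. The rest of the 10 were Trp53i11, Ifit3, Apod, Postn, Col1a1, Ifi207, Oasl2 and Tgfbi, each at least 69.2-fold lower in T and each at background in PT.

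The interferon-inducible GTPases and Ifi genes were the class with the largest share of falls. These include GTPases (Gbp, Irg and Mx proteins) that attack vacuoles and viruses, the Ifi200 DNA sensors, and other genes with Ifi symbols such as Ifi27, Ifi30 and Ifi35. Of 29 measured members, 24 were lower in T (82.8%, against 16.1% of all genes), 1 was higher and 4 did not pass the test, and the class median was -4.31 against 0.02 over all genes. The class was defined by the starts of gene symbols. Iigp1 read 4.78 and 4.38 in T and 13.87 and 13.62 in mVec, at least 30.1-fold lower. Gbp7 read 6.85 and 6.43 against 14.72 and 14.64, at least 57.4-fold lower, and Gbp3 was at least 18.5-fold lower. In each of them both T arrays were at background and both mVec arrays well above it, and PT was at background too. Aim2, the inflammasome sensor of cytosolic DNA, went the other way: it read 11.64 and 11.84 in T, 12.22 and 11.70 in PT, against 7.96 and 7.74 in mVec, a rise of at least 6.68-fold over mVec (limma adjusted p = 1.61e-06). PT gave 25 lower and 1 higher in the same class, against 18.7% lower and 18.6% higher over all genes. Between the Kit lines, 6 members were higher in T than in PT (20.7%, against 5.97% of all genes) and 0 lower (against 2.80%). With gene probe sets above background alone, 1458 of 7114 genes were higher in T than in PT and 824 lower. Irgm1 was among the 6 and lost that call without T replicate 2 or PT replicate 1. Nothing is read from the share of 20.7%.

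The promoters of several strongly lowered genes hold GAAA, any 2 bases and GAAA again, the letters of the interferon-stimulated response element. The stretches below show the match in 6 of them, 4 from the interferon response and, beside them, Selenop and the matrix protein Tgfbi, named for its response to TGF-beta. They come from the RefSeq promoter table of build GRCm38.p6, run 5′ to 3′ on the strand of the gene, and carry the match in capitals. Capitals that begin and end in TTTC are the same letters on the opposite strand.
Ifit3 (chr19:34583383-34583440, plus strand): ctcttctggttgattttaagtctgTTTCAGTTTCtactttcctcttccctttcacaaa
Gbp3 (chr3:142559975-142560032, plus strand): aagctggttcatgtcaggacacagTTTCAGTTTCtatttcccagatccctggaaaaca
Gbp7 (chr3:142530259-142530316, plus strand): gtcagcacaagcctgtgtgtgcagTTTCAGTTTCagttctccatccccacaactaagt
Bst2 (chr8:71537569-71537626, minus strand): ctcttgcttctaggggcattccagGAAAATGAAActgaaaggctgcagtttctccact
Tgfbi (chr13:56609368-56609425, plus strand): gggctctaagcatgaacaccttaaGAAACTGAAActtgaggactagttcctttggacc
Selenop (chr15:3270579-3270636, plus strand): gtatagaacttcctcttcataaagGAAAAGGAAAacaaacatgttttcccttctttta
Ifit3, Gbp3 and Gbp7 share the 10 letters TTTCAGTTTC, and the Tgfbi match is the same 10 letters on the other strand. The 2 free positions are filled differently in Bst2 and in Selenop. A match is a description of these letters and not of a site in use.

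Promoters of 300 bases, from 250 before to 50 after the start, were found for 15690 genes, and 14 motifs were searched on both strands. The interferon-stimulated response element stood in 29 of 206 promoters of genes above background that were called lower by at least 4 on the log2 scale (14.1%), in 50 of 616 lower by at least 2 (8.12%), in 19 of 720 higher by at least 2 (2.64%), in 3.14% of the 6074 genes above background and in 3.41% of all promoters. TGANTCA, the AP-1 site, stood in 10.7% of the 206 and in 4.77% of the genes above background, and GGAATG, the core bound by TEAD factors, in 21.8% and 11.1%. Both shares were also raised among the 82 genes higher by at least 4, at 7.32% for TGANTCA and 19.5% for GGAATG. The shares went the other way for TGACGTCA, the cAMP response element, at 0.485% against 3.85%, and for the NRF1 site, the 10-base palindrome printed in capitals for Ctps below, which was in 0 of the 206 against 2.37%. Among genes higher by at least 2, the NRF1 site stood in 3.06%, near the 2.37% of genes above background and the 2.48% of those not called, and among the 82 higher by at least 4 it stood in 1.22%. The motif TGATGNAAT, bound by ATF4 with CHOP, stood in 0.694% of genes higher by at least 2 and in 0.412% of those above background, so in few promoters of either kind. The set lower by at least 4 was chosen after the values were seen. Related genes with copied promoters count separately in that set. The stretch around the response element is the same in Ifit3 and Ifit3b, and in Apol9a and Apol9b.

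**Figure D2:**
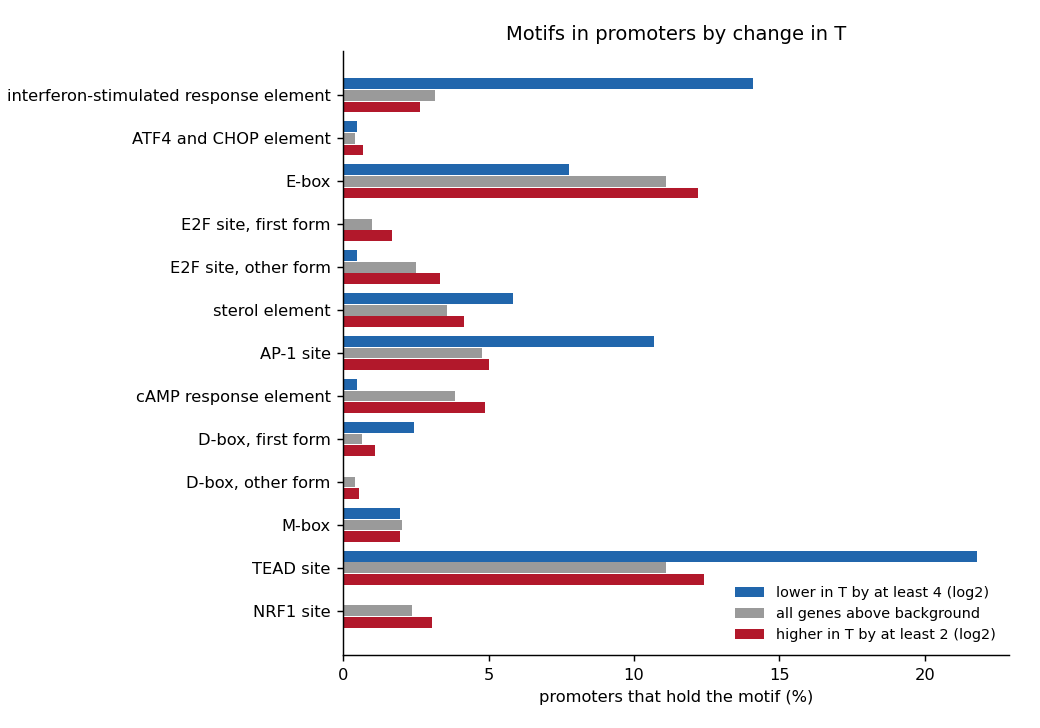
Bars give the percentage of promoters (300 bases, both strands) that hold each motif among genes lower in T by at least 4 on the log2 scale (blue, 206 genes), all genes above background (grey, 6074) and genes higher in T by at least 2 (red, 720). The interferon-stimulated response element stands at 14.1% in the blue set against 3.14% in the grey one.

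The NRF1 match is shown for 3 of the genes that rose: Ctps, which makes CTP from UTP, Shmt2, the mitochondrial serine hydroxymethyltransferase, and Ints2, a subunit of the Integrator complex.
Ctps (chr4:120570308-120570365, minus strand): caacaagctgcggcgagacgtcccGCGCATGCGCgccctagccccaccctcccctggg
Shmt2 (chr10:127522445-127522487, minus strand): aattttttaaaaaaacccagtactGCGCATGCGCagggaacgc
Ints2 (chr11:86257595-86257645, minus strand): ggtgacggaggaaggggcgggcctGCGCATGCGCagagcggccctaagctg
The match lies 55 bases before the start in Ctps, 9 in Shmt2 and 17 in Ints2. Their log2 differences T minus mVec were 4.2, 2.74 and 2.60.

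The largest measured rises were those of Got1, Tmem97 and Steap1. Got1, the cytosolic aspartate aminotransferase, read 15.21 and 15.02 in T and 9.63 and 9.75 in mVec. The T arrays were far above the limit and the mVec arrays close to it. Got1 was 42.9-fold higher in T (log2 difference 5.42 ± 0.21, limma adjusted p = 1.21e-07). Gpt2, the mitochondrial alanine aminotransferase, was 22.8-fold higher, Cth, which makes cysteine from cystathionine, 25.6-fold, and Slc7a1, a carrier of arginine and lysine, 20-fold. Ddx21, an RNA helicase of ribosome assembly, read 16.03 and 15.98 in T against 11.48 and 11.11 in mVec and was 26.2-fold higher. Dis3, the catalytic nuclease of the exosome, read 15.43 and 15.22 against 10.66 and 10.58 and was 26.1-fold higher. Neither pair overlapped. The remaining genes of the 12 were Tmem97 (34.3-fold), which binds sterols, the metalloreductase Steap1 (32.0-fold), the stretch-responsive Ankrd1 (26.3-fold), Reep6 of the endoplasmic reticulum (25.3-fold), the cyclic nucleotide exporter Abcc4 (22.2-fold) and the import chaperone Timm8a1 (20.1-fold). None of the 12 was called between T and PT on the deposited scale, with log2 differences T minus PT from -0.55 to 0.55. When only gene probe sets above background were fitted, Ankrd1 was called lower in T (limma adjusted p = 0.0386) and Abcc4 higher (0.0442). Ankrd1 was also called lower with limma-trend (0.0283).

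Genes at background in mVec and bright in T gave the rest. Bcat1, the cytosolic branched-chain aminotransferase, read 14.63 and 14.51 in T and 5.73 and 6.92 in mVec, at least 47.4-fold higher. Stc2, a secreted stress-induced glycoprotein, was at least 35.0-fold higher, and Pde3b, a phosphodiesterase, at least 33.7-fold higher, from 4.40 and 5.05 in mVec to 14.33 and 13.82 in T. Avil, an actin-binding protein of the gelsolin family, read 14.05 and 13.95 in T, 12.28 and 12.41 in PT, against 8.01 and 7.41 in mVec. Against mVec the rise was at least 32.0-fold in T, and Avil was 3.15-fold higher than in PT (log2 difference 1.65 ± 0.24, limma adjusted p = 0.00448), with no overlap among the 3 lines. Crabp2, a retinoic acid carrier, was also higher in T than in PT (2.28-fold, adjusted p = 0.0296), a call lost without T replicate 2 (0.173) or either PT array (0.177 and 0.0921). The other genes of these 10 were Chka, Foxr2, Rnd1, Msmo1 and Gprc5a, each at least 16.6-fold above mVec. Gprc5a (T minus PT -0.89) was not called between T and PT in the main fit. It was called lower in T with gene probe sets above the median mean (limma adjusted p = 0.0279), with those above background (0.0176) and with limma-trend (0.0277).

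Of 98 gene classes defined by symbol, 97 had at least 8 measured genes. The 8 with the largest share of rises were of RNA processing, transcription, chromosome structure or mitochondrial assembly. The RNA exosome, which trims and degrades RNA from the 3′ end, stood first: 10 of 12 members were higher (83.3%, against 17.7% of all genes), 0 were lower and 2 did not pass, with a median of 1.89. Most members of each of the 8 classes were above background. Among all genes above background 36.5% were higher, which is the nearer baseline for all 8. Beside Dis3, Exosc2 read 11.98 and 12.20 in T against 8.48 and 9.22 in mVec (9.44-fold, with 1 mVec array above background), and Exosc8 read 14.34 and 14.48 against 11.93 and 11.72 (6.01-fold). Exosc1, of the cap of the ring, was at least 3.02-fold higher. Dis3l2, a cytoplasmic nuclease that acts without the exosome, differed by 0.00 and Exosc4 by 0.55, and neither was called.

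Spliceosome and SR proteins, which remove introns, followed with 39 of 57 members higher (68.4%), 1 lower and a median of 1.05. U2af1, the small subunit that reads the 3′ splice site, read 13.15 and 13.08 in T, 11.86 and 12.03 in PT, against 9.57 and 9.72 in mVec, 11.1-fold higher in T than in mVec. Its 3 lines did not overlap. Snrpa1 was 9.78-fold and Sf3a1 6.85-fold higher, and Snrpc at least 4.76-fold. The 1 member that fell was Lsm10, a component of the histone pre-mRNA processing particle rather than of the spliceosome (log2 difference -1.85, with 1 T array above background). Of 48 DEAD and DEAH box helicases, 30 were higher (62.5%) and 6 lower. Ddx20, of the SMN complex, was 8.32-fold and Ddx39a, of mRNA export, at least 11.1-fold higher. The largest fall among them was that of Ddx58, the viral RNA sensor RIG-I, which read 10.19 and 10.48 in T against 13.43 and 13.56 in mVec (8.94-fold lower).

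The tRNA modification class, drawn from the Trmt, Nsun, Pus, Tyw, Elp, Dus, Alkbh and Mettl symbols and so with some enzymes of other RNAs, had 39 of 74 members higher (52.7%) and 7 lower. Pus7, a pseudouridine synthase, was at least 4.25-fold higher, Dus4l, a dihydrouridine synthase, at least 5.49-fold, and the methyltransferases Trmt13 and Mettl16 were 11-fold and 10.2-fold higher. Trmt2b, a methyltransferase of mitochondrial RNA, was at least 1.14-fold lower, with 1 mVec array above background. Of 43 Integrator and Mediator subunits, which link transcription factors and RNA 3′ ends to RNA polymerase II, 21 were higher (48.8%) and 6 lower. Med27 was 5.63-fold and Med8 4.01-fold higher, Ints2 at least 2.76-fold, and Ints6l fell by 1.39 on the log2 scale.

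Mitochondrial import proteins had 19 of 29 members higher (65.5%), 0 lower and a median of 1.07. Timm8a1 read 14.44 and 14.81 in T against 10.32 and 10.27 in mVec, and Timm44, which couples the inner membrane channel to its motor, read 12.76 and 12.74 against 10.04 and 10.12 (6.35-fold). Neither overlapped. Timm10 and Timm22 were at least 2.16-fold and 2.75-fold higher. Among 18 genes of fission, fusion and cristae (Chchd genes included), 9 were higher (50%) and 1 lower, and 5 higher when only gene probe sets above background were fitted. Of the 18, 13 were above background on a T or mVec array, so that filter removed members as well as calls. Over all genes in that fit, 2977 of 7114 were higher, so the 5 are not read as an excess. The mitofusins parted here: Mfn1 was 2.73-fold higher and Mfn2 2.06-fold lower. Of 22 genes of cohesins, condensins and related SMC complexes, 12 were higher (54.5%) and 0 lower, but 7 higher without mVec replicate 2. The condensin subunits Ncapg, Ncaph, Ncapg2 and Smc2 were at background in mVec and above it on both T arrays, at least 4.42-fold, 1.21-fold, 1.15-fold and 2.97-fold higher.

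**Figure D3:**
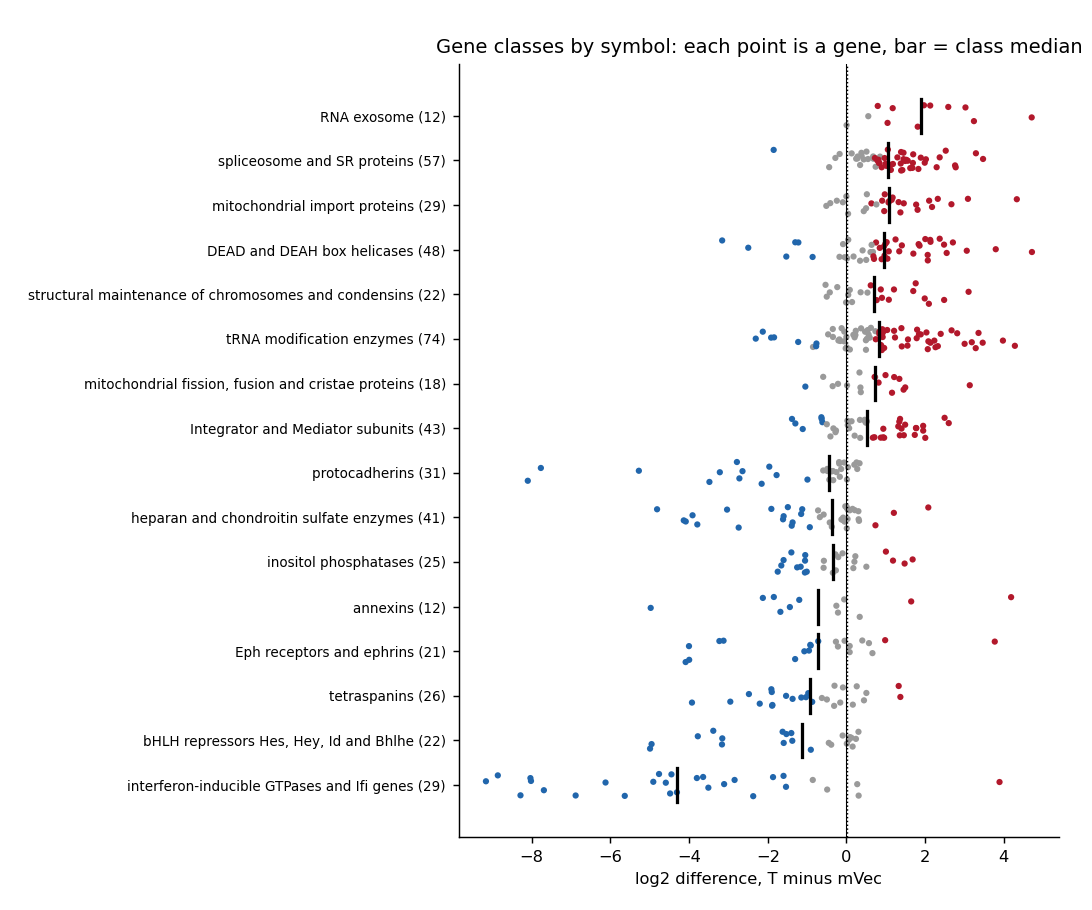
Each point is 1 gene of a class, with its log2 difference T minus mVec on the horizontal axis; red and blue points were called higher and lower, grey points were not called, black bars are class medians and the number of genes is in brackets. The upper 8 classes lie mostly to the right, with the RNA exosome median at 1.89, and the lower 8 to the left, with the interferon-inducible class median at -4.31.

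On the falling side, after the interferon class, came the helix-loop-helix genes. Of 22 helix-loop-helix genes of the Hes, Hey, Id, Bhlhe, Twist and Tcf symbols, 12 were lower (54.5%, against 16.1% of all genes) and 0 higher, with a median of -1.14. Among all genes above background 27.9% were lower. Hes1, a repressor downstream of Notch, read 6.31 and 7.36 in T and 11.80 and 11.86 in mVec, at least 7.97-fold lower. Id3, an inhibitor of E proteins, read 6.70 and 7.25 against 11.62 and 12.24, at least 8.55-fold lower. Bhlhe40, a repressor of the clock, was above background in both lines and 13.7-fold lower. All of these T values were below every mVec value. Hey1 was at least 1.46-fold lower.

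Tetraspanins, which organize other proteins in the membrane, had 14 of 26 members lower (53.8%) and 2 higher. Cd151, the partner of laminin-binding integrins, read 11.29 and 11.54 in T against 14.21 and 14.52 in mVec (7.74-fold lower), Cd81 was 4.61-fold and Tspan14 5.58-fold lower, and Tspan12 at least 8.41-fold. Cd82, known as a suppressor of metastasis, was 2.58-fold higher, from 13.22 and 13.27 to 14.47 and 14.76. Of 12 annexins, which bind membranes in the presence of calcium, 6 were lower (50%) and 2 higher. Anxa6 was at least 26.8-fold lower, Anxa1 4.36-fold, Anxa7 3.60-fold and Anxa4 3.20-fold. Anxa3 rose, from 9.21 and 9.11 in mVec to 13.35 and 13.34 in T (log2 difference 4.18).

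Eph receptors and ephrins, which sort neighbouring cells by contact, had 11 of 21 members lower (52.4%) and 2 higher. Most lay low on the scale: the count was 4 when only gene probe sets above background were fitted, 7 with those above the median mean and 7 without mVec replicate 2. Of the 21, 7 were above background on a T or mVec array, so the filters on low values removed members as well as calls. Over all genes, 2217 of 7114 were lower with gene probe sets above background and 2827 of 9978 with those above the median mean. Epha2 rose from 9.81 and 9.86 in mVec to 13.53 and 13.68 in T (13.6-fold), and at 14.74 and 15.16 it was higher still in PT. Efna5 was 2.10-fold lower. Ephb4 was at least 1.81-fold lower and Efnb1 1.94-fold lower, with 1 T array above background for Efnb1; both calls were lost without mVec replicate 2 (adjusted p = 0.0502 and 0.0947). Protocadherins, of which 12 of 31 were lower (38.7%) and 0 higher, gave 7 with either filter on low values. Of the 31, only 7 were above background on a T or mVec array, so here too the filters removed members. In Pcdh7 the T arrays gave 6.30 and 6.38 against 14.11 and 14.11 in mVec, at least 38.8-fold lower, and Pcdh19 was at least 5.91-fold lower.

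Enzymes that build or trim heparan and chondroitin sulfate chains had 16 of 41 members lower (39.0%) and 3 higher. Chst15, a sulfotransferase of chondroitin sulfate, was 15.1-fold lower with 1 T array above background, Sulf1, which removes sulfate groups from heparan sulfate, at least 4.94-fold, and Csgalnact1 at least 2.61-fold. Extl2 was 4.23-fold higher. Of 25 inositol phosphatases, which remove phosphates from inositol lipids and inositol, 10 were lower (40.0%) and 4 higher. Inppl1, the SHIP2 phosphatase, was 3.15-fold lower, Mtmr6 3.03-fold and Inpp5k 3.36-fold (1 T array above background), and Impa1 was 3.21-fold higher. In the remaining 81 classes, between 0% and 42.4% of members were higher, between 0% and 38.5% lower, and the medians lay between -0.37 and 0.55.

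A smaller set of genes separated T from both other lines. It was chosen by calls in the same direction against mVec and against PT, differences of at least 1 on the log2 scale and T arrays that overlapped none of the other 4. It held 153 genes that were higher in T (0.784%) and 35 that were lower (0.179%). Of the former, 96 were above background on both T arrays and 47 at background on both, and of the latter, 24 were above background on all mVec and PT arrays. The size depended on single arrays: the higher set held 249 genes without T replicate 1, 83 without T replicate 2 and 56 without PT replicate 1, and the lower set 107, 22 and 14, and 15 without PT replicate 2. The values that follow describe the choice and are no test of it.

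Phgdh, the first enzyme of serine synthesis, came first in the order used to name these genes, by the smaller of the differences of the deposited values, an order that values at background do not support. It read 9.0 and 9.83 in T, 5.38 and 5.28 in PT, against 4.29 and 4.75 in mVec. T alone passed the background limit, by a small margin, so the fold is bounded at no less than 1.33 against mVec and 1.32 against PT, while the deposited values differ by 4.90 ± 0.29 and 4.09 ± 0.29 on the log2 scale (limma adjusted p = 1.42e-06 and 0.000216). The later enzymes of the pathway, named here after their values were seen, were high in both Kit lines. Psat1 read 16.36 and 15.93 in T, 16.23 and 16.30 in PT, against 13.84 and 14.24 in mVec, and Psph read 12.98 and 12.88, 13.47 and 13.61, and 9.25 and 9.65. Both were called higher in T than in mVec (4.31-fold and 11.2-fold), and neither between T and PT (limma adjusted p = 0.819 and 0.132).

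Most of the other named genes that were higher in T were at background in mVec. Aldoc, the brain form of the glycolytic enzyme aldolase, read 10.77 and 11.93 in T, 7.78 and 7.87 in PT, against 5.40 and 5.98 in mVec, at least 5.04-fold higher than in PT. Fscn1, which bundles actin in filopodia, read 10.92 and 11.19 in T, 7.82 and 8.34 in PT, against 5.75 and 5.22 in mVec, at least 4.12-fold higher than in PT. T was the only line above background for both genes. Naaa, a lysosomal amidase of lipid amides, was above background everywhere, at 12.95 and 12.72 in T, 10.28 and 10.10 in PT, against 10.94 and 10.62 in mVec, and was 6.26-fold higher than in PT and 4.15-fold higher than in mVec. Dgat2, which completes triglyceride synthesis, was 5.14-fold higher than in PT with 1 PT array above background, Elmo1, a partner of DOCK exchange factors, at least 3.15-fold, and Acox2, a peroxisomal oxidase, at least 3.47-fold. Dthd1, Tmem74, Rnf125, Mamdc2, Ostn, Gadd45b, Trnp1 and Kcnip4 completed the 15, with log2 differences T minus PT from 1.93 to 3.29. Leaving out any 1 array removed neither call from any of the 15.

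Among the genes set apart as lower in T, Npnt and Nrp2 kept both calls in every alternative run. Npnt, a basement membrane ligand of an integrin, read 7.91 and 7.23 in T, 9.94 and 9.80 in PT, against 13.69 and 13.74 in mVec, at least 29.4-fold lower than in mVec and 2.05-fold lower than in PT. Nrp2, a semaphorin and VEGF co-receptor, read 11.03 and 10.54 in T, 12.38 and 12.36 in PT, against 13.54 and 13.52 in mVec, 6.71-fold lower than in mVec and 3.01-fold lower than in PT. In both genes T was lowest, PT in between and mVec highest. Slco3a1, an organic anion carrier (2.85-fold lower than in PT), Ppp2r5c, a regulatory subunit of protein phosphatase 2A (3.17-fold) and Usp54 (at least 1.43-fold) also kept both calls when any 1 array was left out. Slco3a1 and Ppp2r5c had 1 T array above background.

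The other 10 of these lower genes lost a call with single arrays. They were Ccl5, Parvb, Tnc, Tuft1, Prkca, Itga6, Ubald1, Lrig1, Tmem176b and Flrt2, with log2 differences T minus PT from -2.07 to -1.12. Each lost its T minus PT call without PT replicate 1, PT replicate 2 or both, at limma adjusted p from 0.0512 to 0.163. Ccl5 (0.0515) and Itga6 (0.0863) lost it without T replicate 1 as well, and Parvb (0.0639), Tuft1 (0.0583), Prkca (0.122), Ubald1 (0.0659), Lrig1 (0.0556) and Flrt2 (0.131) without T replicate 2. The T minus mVec calls of Parvb (0.114 and 0.106) and Prkca (0.053 and 0.0691) were lost without T replicate 2 or mVec replicate 1. Tnc, the matrix glycoprotein tenascin C, read 8.71 and 9.21 in T, 10.20 and 10.25 in PT, against 14.88 and 14.77 in mVec, and Itga6, the laminin-binding integrin subunit, read 10.98 and 11.52, 12.74 and 12.20, and 14.18 and 14.20. For both, the distance to mVec was larger than that to PT.

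**Figure D4:**
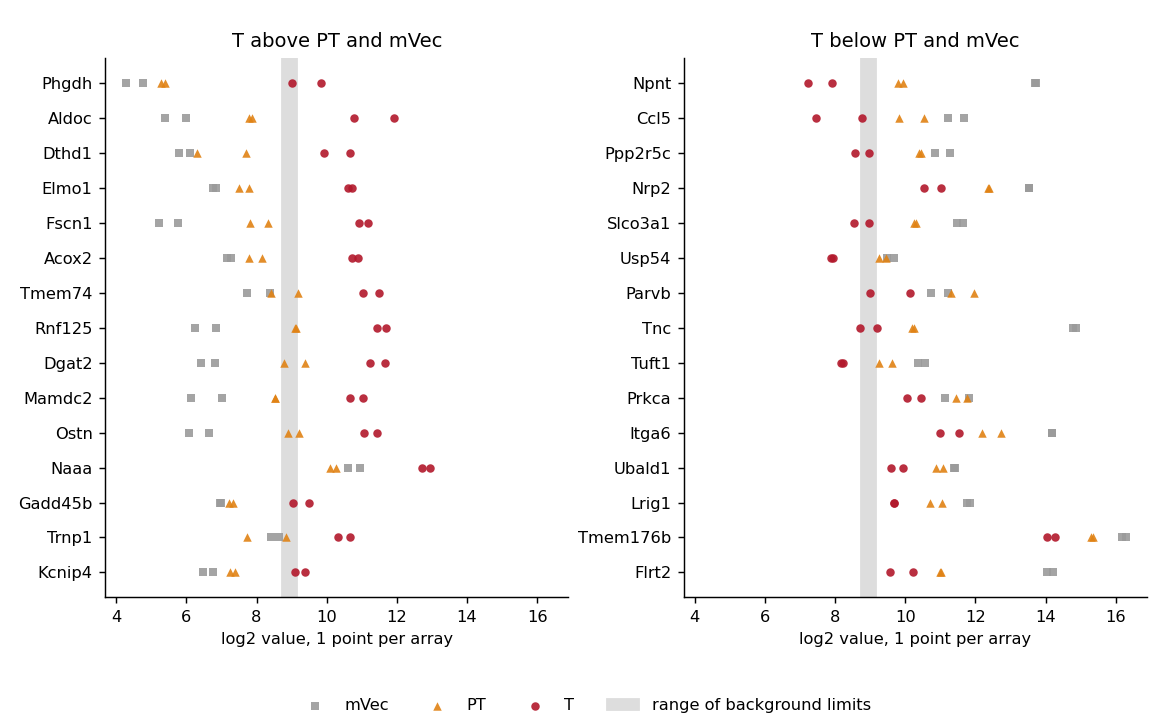
Each point is 1 array, with its log2 value on the horizontal axis, for the 15 genes higher in T (left) and the 15 lower in T (right) that were set apart from both other lines; grey squares are mVec, orange triangles PT, red circles T, and the grey band spans the background limits. In every gene the red circles lie outside the range of the other 4 points, by construction; Naaa and Nrp2 show it well above the band.

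In 22 genes T and PT were called on opposite sides of mVec, 17 with T higher and 5 with T lower. Pdha1, a subunit of the pyruvate dehydrogenase complex encoded on chromosome X, read 13.05 and 13.51 in T, 10.13 and 10.62 in PT, against 12.31 and 12.20 in mVec. T lay above and PT below mVec with no overlap, 2.04-fold higher (log2 difference 1.03 ± 0.25, limma adjusted p = 0.0099) and 1.88 lower on the log2 scale. Without T replicate 2 or mVec replicate 2 the T minus mVec call was lost (adjusted p = 0.0716 and 0.064). Actn1, an actin cross-linker of focal adhesions, read 12.81 and 12.24 in T, 14.88 and 15.09 in PT, against 13.67 and 13.53 in mVec, with T lowest and PT highest (T minus mVec -1.07 ± 0.24, limma adjusted p = 0.00645). Its calls held when any 1 array was left out, as did those of Scnm1 (T minus mVec 1.0) and Lsm14b (1.56). Fbxw2 (0.88), Isoc1 (0.84), Ccbe1 (-0.95, with 1 T array above background) and Fam111a (-0.70) lost the T minus mVec call without 1 array, at adjusted p from 0.0536 to 0.191: Fbxw2 and Isoc1 without T replicate 2 or either mVec array, Ccbe1 without T replicate 2 or mVec replicate 2, and Fam111a without T replicate 1, any mVec or any PT array and, at 0.129, with centred arrays. Akip1 and Cdh6 were at background in all 3 lines, so no fold is given. Akip1 lost its T minus mVec call without any 1 T or mVec array (adjusted p from 0.0626 to 0.158), and Cdh6 with centring (0.123), quantile normalization (0.0902) and limma-trend (0.072) and without T replicate 1 or either mVec array (from 0.122 to 0.151).

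Some classes differed between T and PT more often than the 5.97% higher and 2.80% lower over all genes, and these were picked for that share. Of 60 genes of intraflagellar transport and the BBSome, which carry cargo along cilia, 13 were called higher in T than in PT (21.7%) and 1 lower. Only 7 of the 13 were above background, and 8 were called when gene probe sets above background alone were fitted. Over all genes in that fit, 1458 of 7114 were higher in T than in PT, a larger share than 5.97%. Of the 60, 30 were above background on a T or mVec array, so the 21.7% is not read as an excess of cilia genes. Ift20 read 13.50 and 13.99 in T, 11.90 and 12.12 in PT, against 13.64 and 13.42 in mVec, so that T overlapped mVec and both stood above PT (T minus PT 3.33-fold, limma adjusted p = 0.00328). Ift80 had the same order, at 11.35 and 11.68, 10.36 and 10.05, and 11.39 and 11.15. Of 35 kinesins, the motors of spindle and transport, 9 were lower in T than in PT (25.7%) and 1 higher. Kif20b read 11.91 and 11.89 in T, 13.47 and 13.01 in PT, against 10.02 and 9.58 in mVec, and Kif23 read 11.98 and 12.14, 13.43 and 13.19, and 9.03 and 9.13, with T between the other lines in both. Of 12 annexins 3 were higher in T than in PT, Anxa4 by 2.74-fold and Anxa1 by 2.26-fold among them, and of 9 galectins 3, with Lgals8 by 2.22-fold. Only 2 of those 3 annexins and 1 of those 3 galectins were above background in T or PT. Of the 22 cohesin and condensin genes, 3 were lower in T: Ncaph, Smc1a and Ncapg. With gene probe sets above background alone or with limma-trend 7 were lower, and with those above the median mean 5. Over all genes of these 3 fits, 824 of 7114, 870 of 19505 and 810 of 9978 were lower in T than in PT. The class counts rested on single arrays. Without PT replicate 1 they were 5 for the cilia genes, 1 for the kinesins, 1 for the annexins and 1 for cohesins and condensins. Without T replicate 2 they were 7, 3, 2 and 1, and without PT replicate 2 they were 6, 3, 3 and 0. Without PT replicate 1, Kif20b (adjusted p = 0.0933), Kif23 (0.0652), Anxa1 (0.0883), Lgals8 (0.0719) and Smc1a (0.0883) lost the call. Without PT replicate 2, Ift80 (0.0658), Ncaph (0.0726) and Smc1a (0.0581) lost it, and without T replicate 2, Kif20b (0.0661), Ift80 (0.0652), Lgals8 (0.0526) and Smc1a (0.0786). Ncapg lost it without any 1 array (from 0.0624 to 0.218), with the replicate number as a block (0.0556), with quantile normalization (0.0516) and in the 2-group fit (0.089). Ift20 and Anxa4 kept it throughout.

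The differences were not spread evenly over the genome. Among genes above background, the median log2 difference T minus mVec was highest on chromosome 3, at 0.76, where 217 of 424 genes were higher (51.2%, against 36.5% of genes above background) and 82 lower. Chromosomes 12 (0.58), 17 (0.57) and 5 (0.47) followed. The lowest median was that of chromosome 7, at -0.26, with 108 of 450 genes higher and 162 lower (36.0%, against 27.9%), and chromosome 9 stood at -0.16. In PT minus mVec, chromosomes 3, 12, 17 and 5 stood at 0.54, 0.56, 0.47 and 0.44. Chromosomes 7 and 9 stood at -0.23 and -0.40 in PT. Over the 4 pairings of a T with an mVec array, the median of chromosome 3 ran from 0.67 to 0.76 and that of chromosome 7 from -0.32 to -0.16. These chromosomes were picked as the highest and lowest, and the pairings share arrays, so the gap between the ranges is no test. Centring the arrays raises every median by 0.18 and leaves their order. Chromosome 10 had the highest median T minus PT, at 0.27, with 0.33 against mVec in T and 0.10 in PT. DNA copy number was not measured here.

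Along the chromosomes, medians over 25 neighbouring genes reached 2.11 on chromosome 19 between Kif20b and Exosc1, where 19 genes were higher and 1 lower. The same stretch stood at 2.12 in PT minus mVec. On chromosome 3 the window from Otud7b to Wdr3 reached 1.74 in T and 0.90 in PT, with 16 higher and 4 lower in T. The median of the gene-wise differences T minus PT there was -0.26. That window holds a histone cluster from H2ac20 to H2bc18. Its genes from Txnip to Wdr3, Phgdh among them, also lie in the lowest window of the chromosome, Txnip to Nras (-0.18). The value of 1.74 therefore does not describe the neighbourhood of Phgdh. On chromosome 2 the window from Rpp38 to Pter reached 1.51 in T and 1.61 in PT. The histone cluster window on chromosome 13 from H2ac13 to H2ac8 stood at 1.42 in T and 2.47 in PT, with a median T minus PT of -0.70. The lowest windows were on chromosome 9 between Cyb561d2 and Slc25a20 (-1.20, 17 genes lower and 3 higher), chromosome 1 between Ptprn and Pde6d (-1.10) and chromosome 7 between Irgq and Zfp974 (-1.10, 18 lower and 1 higher). In PT minus mVec the same stretches stood at -1.54, -1.32 and -0.93. The windows were the extremes of many and are given without a test.

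**Figure D5:**
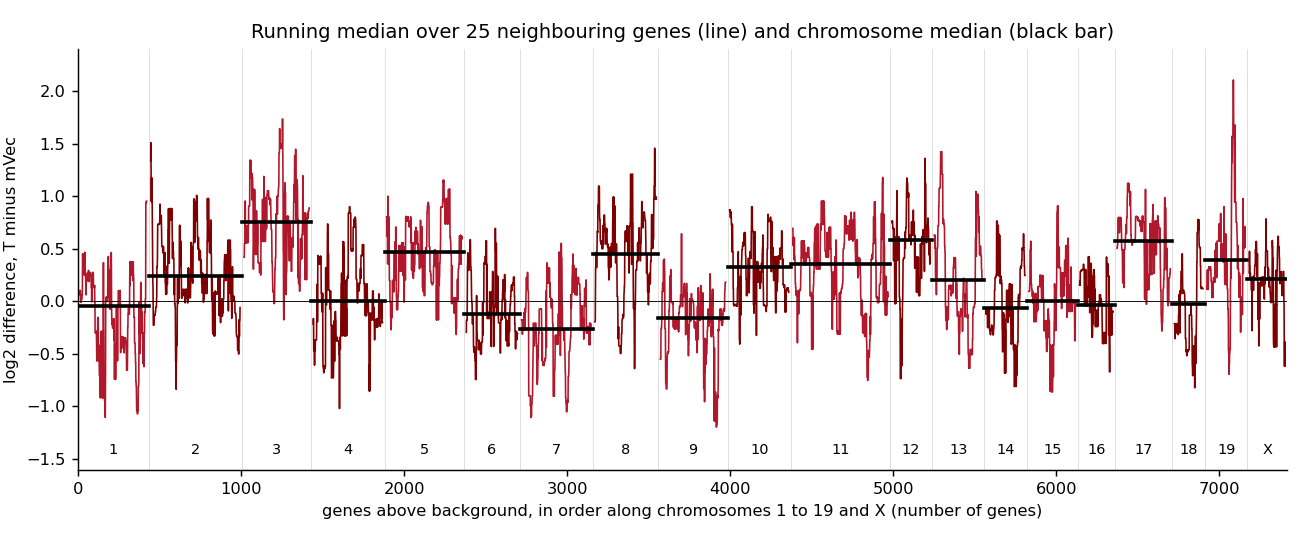
The line gives the median log2 difference T minus mVec over 25 neighbouring genes above background, in their order along chromosomes 1 to 19 and X, and black bars give the median of each chromosome. Chromosome 3 has the highest bar (0.76) and chromosome 7 the lowest (-0.26), and the highest peak, 2.11, is on chromosome 19.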

How the data were processed

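Total RNA of 3 melan-a lines, extracted with the RNeasy kit, was run at a core facility on Affymetrix Clariom S arrays, 2 per line, per the labels' protocols. The authors deposited each probe set's level on every array as a log2 value. The sources used here name no software, background correction, normalization or genome build, so differences are relative to the deposited scale. Of 28846 probe sets, 22206 gene probe sets were tested. The other 6640 were set aside, among them the 5222 negative controls behind the background limits. Symbols came from the platform annotation: 19572 probe sets carry 1 symbol and 2634 none, and all 19505 genes matched RefSeq.

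The linear model estimated 3 group means from the 6 arrays together (R 4.3.3, limma 3.58.1). It left 3 residual degrees of freedom, to which empirical Bayes without trend added 6.36. P-values are two-sided, adjusted by the Benjamini-Hochberg method over the 22206 gene probe sets and called under 0.05; each ± is the SE of that fit. A bounded fold sets the brighter group's mean against, per array, the higher of the limit and the dim value. The steps were tested on simulated data.

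Named genes were, without predicted, Riken, olfactory and small RNA genes, the 12 largest rises and falls measured on all 4 arrays, the 10 largest bounded rises and falls, the 15 genes in each direction set apart from both lines and up to 6 with opposite calls, and up to 4 leading and 1 opposing member of each class described. Psat1, Psph and the members of classes compared between T and PT were chosen after their values were seen. The members, lists and classes were chosen with earlier results of these data known. Alternatives were 2 scalings, 2 filters on low values, limma-trend, fits of 2 groups, the replicate number as a block, leaving out each array, other probe sets and other background limits. Promoters and their coordinates are those of RefSeq on GRCm38.p6.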

Additional observations from a re-analysis of the deposited data

Results flagged for a closer look

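T and PT were called on opposite sides of mVec in 10 named genes. The genes were chosen for those calls in the same limma fit, so the differences between T and PT are a description and support nothing. T minus PT was 2.90 for Pdha1, 1.96 for Scnm1, 2.46 for Lsm14b, 2.10 for Fbxw2, 2.22 for Akip1 and 1.67 for Isoc1 on the log2 scale, with both T arrays above both PT arrays in each. It was -2.46 for Actn1, -2.38 for Ccbe1, -1.81 for Fam111a and -1.36 for Cdh6, with both T arrays below both PT arrays in each. Akip1 and Cdh6 were at background in all 3 lines, so their differences have no measured level behind them, and both lose the T minus mVec call in several alternatives.

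Gene probe sets without a symbol, outside the comparisons over genes, carried signal as well. Of 2634 such probe sets, 583 were called between T and mVec, 290 of them higher. Both are smaller shares than the 33.8% called and the 17.7% called higher over the 19505 genes. Of the 290, 41 were at background in mVec and above it on both T arrays. The largest of those rises was 4.93 on the log2 scale. Their genes are not named here.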

How the results depend on the processing

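The counts of T minus mVec calls moved by less than 1.5 times under every alternative run. Leaving out each array gave 5149 to 6423 called genes, 2678 to 3431 higher, 2448 to 3043 lower and 4812 to 5185 with at least 2-fold difference; an array left alone in its group was assumed to vary like the others. The replicate number as a block gave 6700 calls against 6595, and equal numbers did not deviate together (r = 0.082, 0.043 and 0.040), so the numbers were not used as pairs. The counts of T minus PT depended more on single arrays: leaving out each gave 509 to 1532 called, 341 to 1029 higher in T and 162 to 503 lower, 56 to 249 genes set apart as higher and 14 to 107 as lower. Genes lower in T than in PT numbered 824 with gene probe sets above background alone and 870 with limma-trend, against 546. Genes set apart as higher numbered 100 with probe sets above background, against 153. Of the 188 genes set apart in both directions, 182 were so with centring, 156 with quantile normalization and 69 without PT replicate 1. With the limit at the 99th percentile, 229 genes were at background in T and above it in mVec, against 608. Of the tests of named genes under alternatives, 3315 gave the same call, 103 lost it, 18 gained one and 0 turned direction. Chromosome medians moved by more than the spread of their array pairings in 59 cases and by less in 161; 20 of the 59 came with centring and 18 with quantile normalization. Signal near the background limit bounds the folds of weak genes.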
